A study of Rattus norvegicus with 16 samples.

Results

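The genes described here encode intermediate filament proteins that are used as markers of injury in the glomerulus, the filtering tuft of the kidney. They were chosen by gene name from a list of 9: the type III filament genes Des (desmin) and Vim (vimentin), the larger filament genes Nes (nestin) and Synm (synemin), the nuclear lamin gene Lmna, and the keratin genes Krt7, Krt8, Krt18 and Krt19. Of the 9, 7 were found among the 13222 genes of the deposited table, and Krt18 and Krt19 were not analysed here. The table holds genes that reached 2 CPM (reads of a gene scaled to a common library total) in at least 8 libraries. Each of the 7 genes found was well above that level in every library, the lowest value being 24.0 CPM for Krt8.

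Intermediate filaments are ropes of coiled-coil proteins that give a cell its resistance to strain. Which of them a cell makes depends on its lineage: vimentin and desmin in mesenchymal and muscle cells, keratins in epithelia, and lamins beneath the nuclear envelope of nearly every cell. The podocyte, the epithelial cell that carries the filtration slits, is unusual in that its filaments are of vimentin and nestin rather than keratin. Desmin is scarce in a healthy podocyte and present in the mesangial cells of the tuft, and its appearance in podocytes is the classical marker of their injury in the rat. Keratins 7 and 8 mark the epithelium of the collecting duct and, keratin 8, some parietal cells of Bowman's capsule.

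Gene expression was measured by poly(A) RNA sequencing of glomeruli sieved from the kidneys of male Wistar rats of about 175 g on day 11 of the experiment, in 16 libraries taken as 1 rat each. Puromycin aminonucleoside (PAN), a podocyte toxin, was given intravenously, and pioglitazone, GQ-16 or a sham vehicle was given by daily gavage. The 4 groups held 4 rats each: healthy control rats, PAN rats, PAN rats given pioglitazone and PAN rats given GQ-16. Both drugs are agonists of the nuclear receptor PPAR gamma, GQ-16 a partial one, and the labels give no dose. They also give no age, litter, batch or pairing, so replicate numbers only name the rats of a group, and the labels do not say whether healthy rats received the vehicle. Because the samples are whole glomeruli, more cells of a type and more RNA per cell cannot be told apart.

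To show where transcription of the 4 genes that rose after PAN begins, their promoters are printed from the RefSeq table of build GRCr8, 250 bases before to 50 bases after the annotated start and on the strand of the gene. The table held a promoter for 6 of the 7 genes, not for Krt7. Capitals mark the TATA box (TATAAA) and the GC box (GGGCGG), searched on both strands, so that a GC box on the other strand reads CCGCCC. The windows are chr9:84299376-84299675 on the plus strand for Des, chr17:81577011-81577310 on the plus strand for Vim, chr2:175736338-175736637 on the plus strand for Nes and chr2:176258186-176258485 on the minus strand for Lmna.
Des: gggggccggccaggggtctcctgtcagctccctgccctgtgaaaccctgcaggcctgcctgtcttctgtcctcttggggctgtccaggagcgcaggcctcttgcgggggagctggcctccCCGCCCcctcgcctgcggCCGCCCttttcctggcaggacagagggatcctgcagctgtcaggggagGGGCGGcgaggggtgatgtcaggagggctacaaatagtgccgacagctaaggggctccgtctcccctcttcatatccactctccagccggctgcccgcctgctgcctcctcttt
Vim: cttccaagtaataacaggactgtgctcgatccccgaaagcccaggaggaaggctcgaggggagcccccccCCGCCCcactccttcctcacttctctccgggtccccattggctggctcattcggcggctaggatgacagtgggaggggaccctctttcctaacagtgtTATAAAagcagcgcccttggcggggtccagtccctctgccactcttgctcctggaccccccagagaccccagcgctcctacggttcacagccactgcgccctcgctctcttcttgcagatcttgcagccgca
Nes: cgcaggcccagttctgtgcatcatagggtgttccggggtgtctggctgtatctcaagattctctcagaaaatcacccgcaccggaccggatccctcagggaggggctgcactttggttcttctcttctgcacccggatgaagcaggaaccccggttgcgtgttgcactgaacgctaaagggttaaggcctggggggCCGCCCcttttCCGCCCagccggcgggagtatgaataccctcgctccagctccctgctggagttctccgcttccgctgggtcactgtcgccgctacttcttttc
Lmna: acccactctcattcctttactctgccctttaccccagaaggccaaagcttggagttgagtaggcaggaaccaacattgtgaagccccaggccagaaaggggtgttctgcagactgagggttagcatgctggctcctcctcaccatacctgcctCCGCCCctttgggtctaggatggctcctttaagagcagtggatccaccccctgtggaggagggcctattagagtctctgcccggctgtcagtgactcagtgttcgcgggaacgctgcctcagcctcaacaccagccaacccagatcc
The promoters of Des, Vim and Nes were rich in G and C, at 67.7%, 62.0% and 60.0%, and that of Lmna held 57.3%, against a median of 51.7% over 33469 rat promoters of the same length. GC boxes numbered 3 in Des, 2 in Nes, and 1 each in Vim and Lmna, and 33.1% of all promoters held at least 1. A TATA box was found in Vim, 82 bases before the start, and in Krt8, while 14.2% of all promoters held it. Further motifs searched were the E-box (CANNTG), the AP-1 site (TGANTCA) and the CArG box, and 1 base could count toward more than 1 motif. The E-box, held by 72.1% of all promoters, was found once in Des and 3 times in Krt8. The AP-1 site, held by 7.3%, was found once each in Lmna and Krt8. The CArG box, held by 1.6%, was found in none of the 6 windows, which says only that those letters are not there. The promoter of Synm held none of the 5 motifs.

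Library totals ran from 13351137 to 21977663 reads, so that 3 reads, the smallest level taken as detectable, corresponded to between 0.137 and 0.225 CPM, far below every value of the 7 genes. Reads of 13 mitochondrial genes made up 13.7% to 39.0% of a control library, 5.83% to 10.6% of a PAN library, 8.61% to 19.0% under pioglitazone and 6.63% to 30.9% under GQ-16. Because CPM is a share of the library, changes of the 7 genes from control and from PAN are given as deposited and also after median-ratio scaling, which sets the typical gene to the same level in every library. From control to PAN the typical gene changed by 0.28 on the log2 scale as deposited and by -0.003 after that scaling (medians over all genes). Control replicates 2 and 3 had the highest mitochondrial share, 39.0% and 32.1%, and also the lowest podocyte markers. Sample names numbered 25 or higher belonged to 3 PAN rats, 1 rat on each drug and 0 control rats, and the labels do not say what the numbers stand for. The podocyte marker Nphs1 was abundant in every library, between 358 and 3553 CPM. Some other podocyte markers were low, with Magi2 falling to 4.48 CPM and Pla2r1 to 9.06 CPM.

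The comparison of PAN with control asks how the filament genes stand in injured glomeruli. Des, Vim, Nes and Lmna rose, and Synm, Krt7 and Krt8 did not pass the test (limma with Benjamini-Hochberg adjustment over 13222 genes, called at an adjusted p under 0.05). The 4 called genes of 7 stand beside 21.7% of all genes called higher in this comparison, and 0 called lower stand beside 0.522%. In 5 of the 7 (Des, Vim, Nes, Lmna and Synm) every PAN rat was above every control rat, which held for 22.4% of all genes. The median log2 change of the 7 was 0.67 as deposited and 0.36 after median-ratio scaling. That scaling left 4 genes called higher, beside 7.13% of all genes, and made 1 gene, Krt7, lower, beside 1.5% of all genes.

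**Figure D1:**
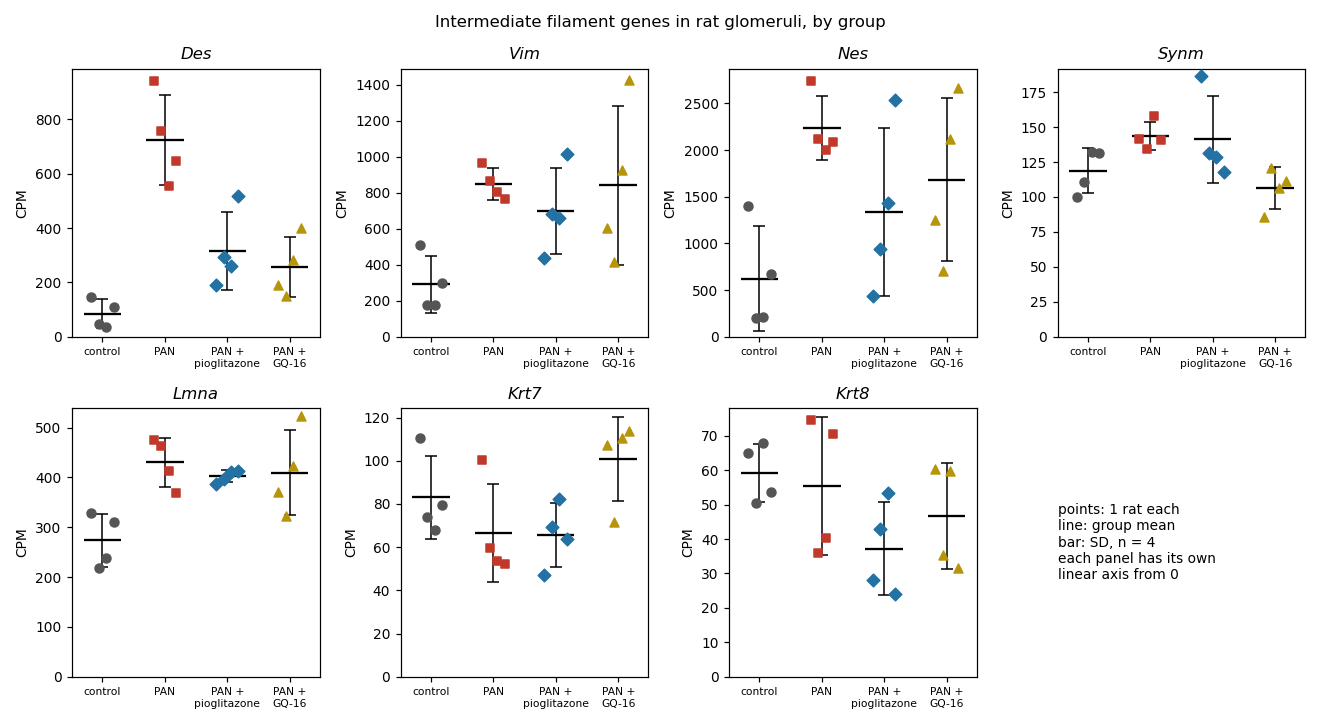
CPM of each of the 7 intermediate filament genes in each rat, by group, with the group mean as a line and the SD as a bar (n = 4). Each panel has its own linear axis from 0. In Des the 4 PAN rats, between 555 and 942 CPM, lie above every rat of the other 3 groups, whose highest value is 519 CPM.

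Des (ENSRNOG00000019810), the muscle and mesangial type III filament gene, stood at 147.9, 48.5, 37.5 and 108.5 CPM in the 4 control rats. In the 4 PAN rats it stood at 941.9, 757.5, 554.5 and 645.4 CPM. The lowest PAN rat was thus several times above the highest control rat. The control mean was 85.6 ± 51.9 CPM and the PAN mean 725 ± 167 CPM (SD, n = 4). The log2 change was 3.25 with an SE of 0.409 (limma adjusted p 0.000379), or 9.53-fold on the log2(CPM + 1) scale with a 95% interval from 5.23 to 17.4. After median-ratio scaling the change was 2.95, and Des had the 13th largest rise among all 13222 genes on either scale. It kept its call under every alternative tried, the smallest change being 2.37 with the podocyte marker mean as a covariate (limma adjusted p 8.12e-05). Without control replicates 2 and 3 it was 2.48 (limma adjusted p 0.0209).

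Vim (ENSRNOG00000018087), the other type III gene and the main filament gene of the podocyte, stood at 511.5, 178.2, 177.6 and 300.2 CPM in control and at 964.7, 863.3, 801.2 and 765.9 CPM in PAN. The PAN rats lay close together and the control rats differed widely among themselves. The log2 change was 1.67 (SE 0.373, limma adjusted p 0.00787), and 1.37 after median-ratio scaling. With a covariate for sample names numbered 25 or higher it was 1.12 (limma adjusted p 0.172), and without control replicates 2 and 3 it was 1.11 (limma adjusted p 0.286), so the call was lost in both.

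Nes (ENSRNOG00000018681), the large filament gene that is typical of progenitor cells and of podocytes, stood at 1398, 199.8, 210.8 and 671.6 CPM in control and at 2738, 2114, 2005 and 2081 CPM in PAN. Relative to its mean it had the widest spread among control rats of the 7 genes, and no PAN rat fell within it. Its log2 change was 2.31 (SE 0.607, limma adjusted p 0.0181), and 2.01 after median-ratio scaling (limma adjusted p 0.034). The call was lost with the sample-name covariate (1.60, limma adjusted p 0.261), without control replicates 2 and 3 together (1.19, limma adjusted p 0.492), and without control replicate 2, control replicate 3 or PAN replicate 1 alone (limma adjusted p 0.0803, 0.0753 and 0.0544). Synm (ENSRNOG00000014030), whose protein joins desmin or vimentin filaments to the membrane, had a control mean of 119 ± 15.99 CPM and a PAN mean of 144 ± 9.88 CPM (SD, n = 4). Although the groups did not overlap, with 100.1 to 132.3 CPM against 134.5 to 157.6 CPM, its log2 change of 0.28 (SE 0.151) matched the median of all genes and became -0.02 after median-ratio scaling.

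Lmna (ENSRNOG00000019638), the gene of lamins A and C of the nuclear lamina, stood at 328.6, 217.5, 238.1 and 309.7 CPM in control and at 475.8, 462.6, 413.7 and 368.9 CPM in PAN. The groups did not overlap. The log2 change was 0.67 (SE 0.165, limma adjusted p 0.0136), and 0.36 after median-ratio scaling (limma adjusted p 0.0299). It was 0.46 with the sample-name covariate (limma adjusted p 0.228), 0.42 without control replicates 2 and 3 (limma adjusted p 0.354) and 0.39 with the podocyte marker covariate (limma adjusted p 0.0664), and each of these lost the call, as did leaving out control replicate 2 or 3 alone (limma adjusted p 0.0576 and 0.0577).

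The keratin genes, which mark epithelia other than the podocyte, were not called higher in PAN. Krt7 (ENSRNOG00000008057), the type II keratin gene of simple and ductal epithelia, stood at 110.8, 74.0, 68.1 and 79.3 CPM in control and at 100.2, 59.8, 53.7 and 52.3 CPM in PAN. Apart from 1 rat, the PAN values lay below all control values. Its log2 change was -0.34 (SE 0.227, limma adjusted p 0.249) as deposited and -0.64 after median-ratio scaling (limma adjusted p 0.04), and it was called lower also with the podocyte marker covariate (-0.73, limma adjusted p 0.028). Krt8 (ENSRNOG00000009779), the type II keratin gene of simple epithelia, had a control mean of 59.2 ± 8.44 CPM and a PAN mean of 55.4 ± 19.96 CPM (SD, n = 4), with log2 changes of -0.16 as deposited (limma adjusted p 0.683) and of -0.45 after median-ratio scaling. Its PAN values of 74.7, 36.1, 40.4 and 70.4 CPM lay on both sides of the control range of 50.5 to 67.8 CPM. Beside the keratins, 9 of 11 collecting duct markers were in the table, and their summed level ran from 209 to 241 CPM in control, 149 to 219 in PAN, 104 to 135 under pioglitazone and 153 to 225 under GQ-16. Of these 9, 2 were called lower in PAN under both scalings, beside 0.522% of all genes as deposited and 1.5% after median-ratio scaling. The part of these markers in the keratin values was not tested. None of the 5 urothelial markers listed was in the table. Parietal cell markers, 6 of 7 in the table, summed to between 221 and 449 CPM in control and between 462 and 763 CPM in PAN. Of them 3 were called higher, beside 21.7% of all genes, and 0 after median-ratio scaling, beside 7.13%.

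Markers of other cells that make desmin also differed between the groups. Of 11 mesangial and smooth muscle markers 9 were in the table, and their summed level ran from 569 to 1169 CPM in control and from 1609 to 2620 CPM in PAN, with 8 of the 9 called higher (7 after median-ratio scaling). It ran from 1480 to 1863 CPM under pioglitazone and from 953 to 1572 CPM under GQ-16. Of 21 striated muscle genes 7 were in the table, and their sum ran from 45.3 to 171 CPM in control, 528 to 695 in PAN, 149 to 628 under pioglitazone and 128 to 686 under GQ-16, with 4 of the 7 called higher in PAN under both scalings. The defining muscle genes Actn2, Myh6, Myh7, Ttn, Ckm and Mb were not among them. All 15 podocyte markers were in the table. Their sum ran from 3028 to 10593 CPM in control, 8428 to 12162 in PAN, 5294 to 13522 under pioglitazone and 4868 to 16353 under GQ-16. In PAN 4 were called higher, and 1 after median-ratio scaling. Over all genes 21.7% were called higher, and 7.13% after that scaling, so the podocyte counts stood near these shares. The median log2 change of the podocyte markers was 1.38, and 1.08 after that scaling, beside 0.28 and -0.003 over all genes. The part of these cells in the level of Des was not tested beyond the ratios that follow.

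Other cells of the preparation make vimentin or keratin 8, and their markers are given beside the 21.7% of all genes called higher in PAN and the 0.522% called lower. Of 11 endothelial markers 10 were in the table, and their sum ran from 6631 to 9445 CPM in control, 6043 to 9395 in PAN, 6825 to 12440 under pioglitazone and 6335 to 8189 under GQ-16. In PAN 2 of the 10 were called higher (1 after median-ratio scaling), 6 were lower in value and their median log2 change was -0.10. Of 8 fibroblast markers 5 were in the table, and their sum ran from 77.2 to 163 CPM in control, 182 to 2652 in PAN, 261 to 368 under pioglitazone and 254 to 970 under GQ-16, with 1 of the 5 called higher in PAN under both scalings. Of 10 leukocyte markers 9 were in the table, and their sum ran from 477 to 822 CPM in control, 752 to 1714 in PAN, 742 to 1013 under pioglitazone and 553 to 840 under GQ-16, with 5 called higher in PAN and 0 after median-ratio scaling. Of 7 markers of the loop and distal tubule 6 were in the table, and their sum ran from 955 to 1692 CPM in control, 490 to 1066 in PAN, 592 to 716 under pioglitazone and 630 to 1187 under GQ-16, with 4 called lower in PAN and 3 after median-ratio scaling. The part of these cells in the levels of Vim and Krt8 was not tested.

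Ratios within a library do not depend on its total, and 9 were tested, each by an exact two-sided permutation over 70 assignments of 8 rats. Des rose against Vim, against the mean of the podocyte markers and against the mean of the mesangial and smooth muscle markers. The log2 ratio of Des to Vim was -1.83 ± 0.309 in control and -0.25 ± 0.207 in PAN, a difference of 1.58. The log2 ratio of Des to the podocyte markers was -0.78 ± 0.318 in control and 1.41 ± 0.233 in PAN, a difference of 2.20 (SD, n = 4). Against the mesangial and smooth muscle markers it was 0.79 ± 0.414 in control and 2.50 ± 0.241 in PAN, a difference of 1.71. For each, the exact permutation p was 0.0286, the smallest this design can give. All 9 tests gave this value, so adjustment over them could not change it. Those tests share Des and the 4 PAN rats and are not independent of each other. Taking the median in place of the mean of the mesangial markers gave 1.29 with an exact permutation p of 0.0571.

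**Figure D2:**
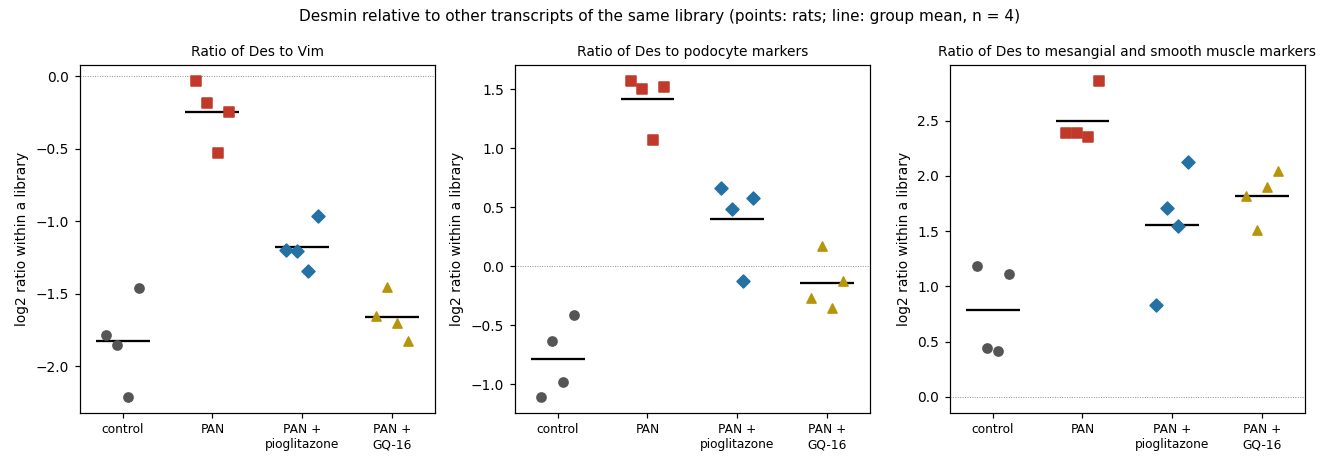
Log2 ratio of Des to Vim, to the mean of 15 podocyte markers and to the mean of 9 mesangial and smooth muscle markers, within each library. Points are rats and lines are group means (n = 4). In all 3 panels the 4 PAN rats lie above every other rat, and under GQ-16 the ratio to Vim, -1.83 to -1.45, lies within the control range of -2.21 to -1.46 but for its highest rat.

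Vim and Nes ran closer to the podocyte markers than Des did. The log2 level of Vim relative to the podocyte marker mean ran from 0.68 to 1.23 in control and from 1.60 to 1.76 in PAN. That of Nes ran from 1.39 to 2.21 in control and from 2.92 to 3.20 in PAN. Neither overlapped between these groups, but the distance was smaller than for Des, which ran from -1.11 to -0.41 in control and from 1.07 to 1.57 in PAN. With the podocyte marker mean as a covariate the log2 changes of Vim and Nes were 0.83 and 0.89 (limma adjusted p 0.00387 and 0.0078), against 1.67 and 2.31 without it.

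**Figure D3:**
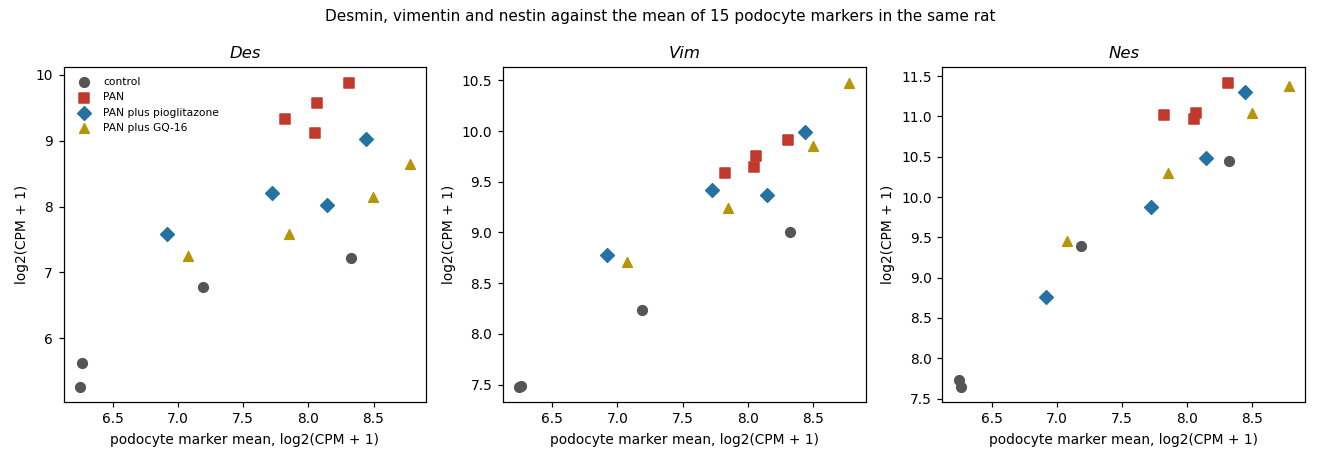
Level of Des, Vim and Nes, as log2(CPM + 1), against the mean log2(CPM + 1) of 15 podocyte markers in the same rat, with 16 rats marked by group. In Des the PAN rats stand above the rats of all other groups at a like podocyte level. In Vim and Nes the groups lie closer together, and rats with higher podocyte markers have higher values.

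The comparisons of each drug with PAN ask whether treatment altered these levels. With either drug Des was lower in every treated rat than in every PAN rat, yet it did not pass the test over all genes, and 0 of the 7 genes were called. Under pioglitazone Des stood at 190.3, 295.3, 259.1 and 519.0 CPM, a mean of 316 ± 142 (SD, n = 4). Under GQ-16 it stood at 191.1, 151.2, 283.0 and 401.1 CPM, a mean of 257 ± 111. The highest rat of each drug group was below the lowest PAN rat, at 554.5 CPM, and the lowest was above the highest control rat, at 147.9 CPM. The log2 change from PAN was -1.27 under pioglitazone (95% interval -2.13 to -0.40, limma unadjusted p 0.00693, adjusted p 0.916) and -1.57 under GQ-16 (95% interval -2.43 to -0.70, limma unadjusted p 0.00148, adjusted p 0.356). These were the 22nd and the 21st largest falls in value among 13222 genes, and the same 4 PAN rats stand behind both. After median-ratio scaling they were -1.18 and -1.44. With the podocyte marker mean as a covariate the change under GQ-16 was -1.56 and passed (limma adjusted p 0.00396), in a fit chosen after seeing the data that called 51 genes, 42 of them lower, where the fit without the covariate called 2. In the same fit the change under pioglitazone was -1.05 (limma adjusted p 0.148).

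Over all genes, 0% were called lower under pioglitazone and 0.0151%, or 2 genes, under GQ-16, and 495 and 1094 genes had an unadjusted p under 0.05. Groups that did not overlap, with the treated rats lower, made up 2.36% of all genes under pioglitazone, where Des was the only one of the 7 genes. They made up 3.47% under GQ-16, where Des and Synm were the 2 of 7, Synm only as deposited and not after median-ratio scaling. At an unadjusted p under 0.05 stood 1 of the 7 genes under pioglitazone and 3 under GQ-16. The median change of the 7 from PAN was -0.34 under pioglitazone and -0.23 under GQ-16, beside -0.09 and -0.11 over all genes.

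The sample names give a partial view within 1 range of numbers. Among rats numbered 15 or lower, Des stood at 645 CPM in the single PAN rat, at 190 to 295 CPM in 3 rats on pioglitazone and at 151 to 283 CPM in 3 rats on GQ-16. Among those numbered 25 or higher it stood at 555 to 942 CPM in 3 PAN rats, at 519 CPM in 1 rat on pioglitazone and at 401 CPM in 1 rat on GQ-16. In both ranges the treated rats were below the PAN rats, with too few rats for a test. With a covariate for these numbers the log2 changes were -0.89 under pioglitazone and -1.19 under GQ-16 (limma adjusted p 0.852 and 0.483).

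Relative to Vim and to the means of the podocyte and the mesangial and smooth muscle markers Des fell with both drugs. The log2 ratio of Des to Vim was -1.18 ± 0.157 under pioglitazone and -1.66 ± 0.154 under GQ-16 (SD, n = 4), lower than in PAN by differences of -0.93 and -1.41. To the podocyte markers the ratio was 0.40 ± 0.356 and -0.14 ± 0.230, with differences of -1.01 and -1.56. To the mesangial and smooth muscle markers it was 1.55 ± 0.539 and 1.82 ± 0.224, with differences of -0.94 and -0.68. Each exact permutation p was 0.0286, the smallest possible. As all 9 tests gave that value, adjustment over them could not change it. The last pair rested on the mean over the markers: with their median the differences were -0.61 and -0.20 (exact permutation p 0.371 and 0.514). No ratio to the striated muscle markers was tested. Of these, 7 of 7 were lower in value than in PAN under pioglitazone and 6 of 7 under GQ-16. Their median log2 changes were -1.01 and -1.12, beside -1.27 and -1.57 for Des.

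**Figure D4:**
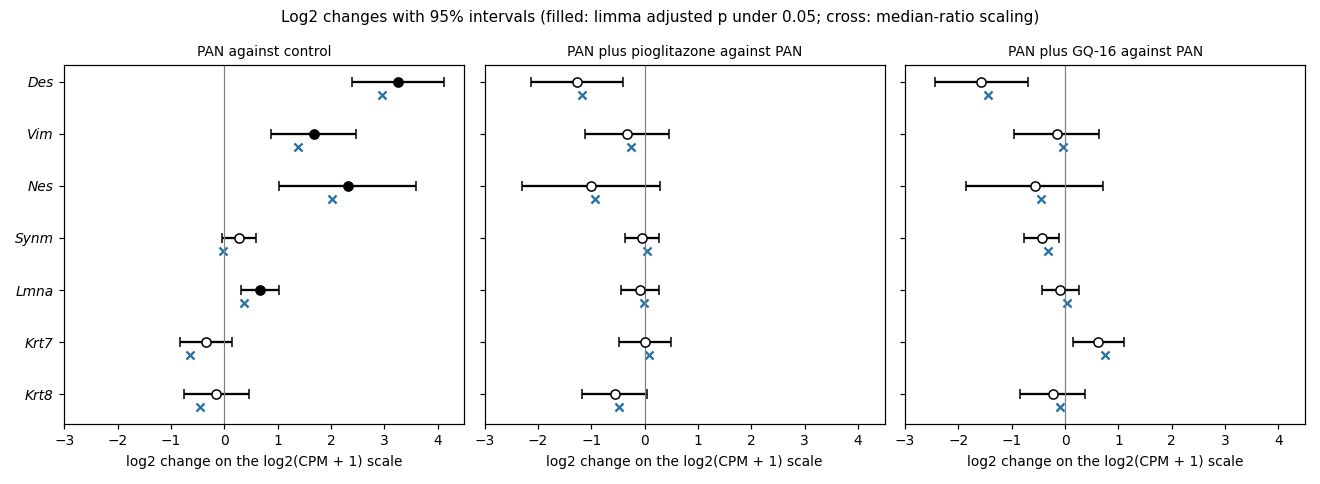
Log2 change of each gene on the log2(CPM + 1) scale for PAN against control and for each drug with PAN against PAN alone, with 95% intervals. Filled circles passed the limma test at an adjusted p under 0.05 and crosses give the median-ratio value. Des is farthest from 0 in all 3 panels, at 3.25, -1.27 and -1.57, and only in the first are any circles filled.

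Vim, Nes and Lmna had changes from PAN closer to 0 than Des under both drugs. Vim stood at 439.2, 682.6, 660.2 and 1016 CPM under pioglitazone and at 602.3, 416.2, 924.4 and 1424 CPM under GQ-16, and both groups overlapped the PAN rats. Its log2 changes from PAN were -0.34 and -0.16, and -0.25 and -0.03 after median-ratio scaling. Nes stood at 431.5, 938.7, 1431 and 2536 CPM under pioglitazone and at 1253, 699.2, 2114 and 2662 CPM under GQ-16, spreads that reached from the control to the PAN levels. Its log2 changes were -1.01 (limma unadjusted p 0.116) and -0.57, and -0.93 and -0.45 on the median-ratio scale. Relative to the podocyte marker mean, Vim ran from 1.22 to 1.86 under pioglitazone and from 1.36 to 1.70 under GQ-16, and Nes from 1.84 to 2.87 and from 2.38 to 2.60, all on the log2 scale. For Nes these ranges lay below the PAN range of 2.92 to 3.20. Lmna was 402 ± 12.0 CPM under pioglitazone and 410 ± 86.0 CPM under GQ-16 (SD, n = 4), beside 430 ± 48.8 in PAN, with log2 changes of -0.09 and -0.09 that became -0.01 and 0.04 after median-ratio scaling.

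Synm and Krt7 moved in opposite directions in value under GQ-16. Synm stood at 85.6, 121.1, 106.8 and 111.5 CPM under GQ-16, below every PAN rat, a log2 change of -0.44 (limma unadjusted p 0.0101, adjusted p 0.447) that was -0.31 after median-ratio scaling. With that scaling Synm overlapped between the groups, at 86.2 to 141 CPM under GQ-16 and 123 to 145 CPM in PAN. Under pioglitazone it stood at 186.8, 131.3, 128.9 and 117.6 CPM and overlapped the PAN rats, with a log2 change of -0.05 that was 0.04 after median-ratio scaling. Krt7 stood at 107.4, 71.7, 110.6 and 113.7 CPM under GQ-16, and 3 of these rats were above all PAN rats, a log2 change of 0.62 (limma unadjusted p 0.0144, adjusted p 0.467) that was 0.75 after median-ratio scaling. Under pioglitazone it stood at 47.0, 69.5, 82.5 and 63.9 CPM, a log2 change of 0.01 and, after median-ratio scaling, 0.09. Krt8 stood at 28.2, 42.9, 53.4 and 24.0 CPM under pioglitazone and at 60.2, 35.4, 59.8 and 31.6 CPM under GQ-16, with log2 changes of -0.56 (limma unadjusted p 0.0682) and -0.23 that were -0.48 and -0.10 on the median-ratio scale. In GQ-16 against PAN 9 of 9 mesangial and smooth muscle markers were lower in value, with a median log2 change of -0.67. So were 9 of 9 leukocyte markers (median -0.57) and 6 of 7 striated muscle markers (median -1.12). Of the tubule lists, 6 of 6 loop and distal tubule markers were higher, with a median of 0.41. Collecting duct and proximal tubule markers were lower in value in 5 of 9 and 5 of 7, with medians of -0.04 and -0.10. None of these markers was called, and their part in Synm and Krt7 was not tested. The log2 distance of Krt7 above Krt8 ran from 0.01 to 0.76 in control, -0.42 to 0.71 in PAN, 0.62 to 1.37 under pioglitazone and 0.82 to 1.81 under GQ-16, as levels per library total that are not scaled for gene length.

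The direct comparison of GQ-16 with pioglitazone called 0 of the 7 genes and 0% of all genes, with 786 genes and 2 of the 7, Synm and Krt7, at an unadjusted p under 0.05. The labels give no dose for either drug, so it is not known whether doses matched. Des differed by -0.30 on the log2 scale (95% interval -1.17 to 0.57, limma adjusted p 0.999), an interval that holds no difference as well as a lower and a higher level under GQ-16. Krt7 was higher in value under GQ-16 by 0.62 (95% interval 0.13 to 1.10, limma adjusted p 0.725), and Synm lower by -0.39 (95% interval -0.71 to -0.07, limma adjusted p 0.725). Beside these, 9 of 9 collecting duct, 6 of 6 loop and distal tubule and 7 of 7 proximal tubule markers were higher in value under GQ-16, with median log2 differences of 0.57, 0.34 and 0.30, and 8 of 9 mesangial and smooth muscle markers were lower, with a median of -0.52. Endothelial and leukocyte markers were lower in 10 of 10 and 8 of 9, with medians of -0.29 and -0.25. Podocyte markers were lower in 3 of 15, with a median of 0.28. None of them was called, and their part in Krt7 and Synm was not tested. The differences for Vim, Nes, Lmna and Krt8 were 0.18, 0.44, 0.003 and 0.33. Their 95% intervals ran from -0.61 to 0.97, from -0.85 to 1.72, from -0.35 to 0.35 and from -0.27 to 0.94.

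Treated rats were also set against control, to see which levels remained. These comparisons share the 4 control rats with the comparison of PAN and control. Under pioglitazone Des and Vim stayed higher than in control. The log2 changes were 1.99 for Des (limma adjusted p 0.0176) and 1.34 for Vim (limma adjusted p 0.0498), 2 of 7 genes beside 4.7% of all genes called higher. In Des and Lmna the groups did not overlap, beside 13.1% of all genes. After median-ratio scaling Des kept its call (1.77, limma adjusted p 0.02) and Vim did not (1.12, limma adjusted p 0.0582). Without control replicates 2 and 3 neither was called (1.21 and 0.77, limma adjusted p 0.435 and 0.699). Des also lost its call without control replicate 2, control replicate 3, pioglitazone replicate 2 or pioglitazone replicate 4 alone (limma adjusted p 0.0813, 0.0744, 0.0631 and 0.0551). Vim lost it without any of these 4 rats, control replicate 4 or pioglitazone replicate 3 (limma adjusted p 0.0548 to 0.19). The log2 changes of Lmna and Nes, at 0.58 (limma adjusted p 0.0539) and 1.30 (limma adjusted p 0.173), did not pass and were 0.36 and 1.08 after median-ratio scaling. Those of Synm and Krt7 were 0.23 and -0.34, and 0.02 and -0.55 on the median-ratio scale. Krt8, at 37.1 ± 13.5 CPM under pioglitazone (SD, n = 4), had a log2 change of -0.72 (limma unadjusted p 0.0238, adjusted p 0.131) and of -0.93 after median-ratio scaling, in rats where 6 of 9 collecting duct markers were called lower than in control, beside 38 of the 13222 genes. Their part in this value was not tested.

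Under GQ-16 0 of the 7 genes were called against control, beside 0.151% of all genes called higher, and 4 had an unadjusted p under 0.05, as did 3165 of the 13222 genes. The log2 changes were 1.69 for Des, 1.52 for Vim, 1.74 for Nes and 0.58 for Lmna (limma adjusted p 0.085, 0.0855, 0.127 and 0.0964). They were 1.51, 1.34, 1.56 and 0.40 on the median-ratio scale. In Des alone of the 7 the groups did not overlap, beside 4.92% of all genes. All 4 genes were called when control replicate 1, the control rat with the highest level of each, was left out (limma adjusted p 0.0163 to 0.0275), but that fit called 1572 of all genes where the fit with every rat called 20. Krt7, Synm and Krt8 had log2 changes of 0.28, -0.16 and -0.38, and 0.11, -0.34 and -0.56 on the median-ratio scale. Of these last, the values of Krt7 and Synm changed sign with the podocyte marker covariate.

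Genes that work with these filaments were read from lists of known function. Of 24 further intermediate filament genes 7 were in the table, and 3 rose in PAN with 0 lower under both scalings, beside the 21.7% of all genes called higher. Lmnb1 and Lmnb2, the B-type lamin genes, rose from 10.1 ± 1.25 to 28.3 ± 5.43 CPM and from 11.3 ± 1.79 to 23.6 ± 2.64 CPM (SD, n = 4). On the log2 scale the rises were 1.38 for Lmnb1 and 0.999 for Lmnb2, with adjusted p-values of 0.0028 and 0.00168 from limma. Sync (syncoilin), whose protein binds desmin in muscle, rose from 2.25 ± 0.693 to 6.68 ± 1.63 CPM, a rise of 1.24 log2 units with a limma adjusted p of 0.00116. After median-ratio scaling the 3 changes were 1.10, 0.72 and 1.02. The neurofilament genes Nefm and Nefh did not pass, at -0.66 (limma adjusted p 0.135) and -1.04 (limma adjusted p 0.329). The median change of the 7 was 0.38, beside 0.28 over all genes, and 0.10 after median-ratio scaling.

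Among the chaperones of filaments, 8 of 10 were in the table, and 3 rose in PAN with 0 lower under both scalings, beside 21.7% of all genes called higher as deposited and 7.13% after median-ratio scaling. Cryab (alpha B-crystallin), the chaperone of desmin, rose from 54.9 ± 47.7 to 166 ± 13.5 CPM (SD, n = 4), a log2 change of 1.97 (limma adjusted p 0.014). Hspb2 and Hspb6, small heat shock protein genes of muscle, rose by 1.66 and 0.74 (limma adjusted p 0.0115 and 0.00354). Their values after median-ratio scaling were 1.68 for Cryab, 1.42 for Hspb2 and 0.46 for Hspb6. Hspb1 and Bag3, other members of this list, had values of 0.12 and 0.27, did not pass (limma adjusted p 0.652 and 0.121) and turned to -0.18 and -0.02 after median-ratio scaling. The median log2 change was 0.48 over the chaperones, 0.15 over the anchors described next and 0.34 over the lamina partners after them. After median-ratio scaling these medians were 0.22, -0.16 and 0.05, beside -0.003 over all genes, so that of the anchors turned. Of 16 plakins and desmosomal anchors, which tie filaments to junctions and to other parts of the cytoskeleton, 13 were in the table and 0 were called in PAN as deposited, with 1 lower after median-ratio scaling. Plec (plectin) and Dsp (desmoplakin) had log2 changes of 0.15 and -0.02, and -0.16 and -0.32 on the median-ratio scale. Of 18 partners of the lamina and enzymes of lamin A processing, 14 were in the table and 5 were called higher, beside the same 21.7% of all genes, and 0 after median-ratio scaling, beside 7.13%. The 3 largest of the called rises were Rce1, Sun2 and Fnta, with 0.59, 0.51 and 0.49 (limma adjusted p 0.0269, 0.0373 and 0.0488). In the comparisons of either drug with PAN 0 genes of these 4 lists were called. Sync, at 3.95 CPM under GQ-16, had a log2 change of -0.63 from PAN (limma adjusted p 0.421), and Cryab one of -0.22 under GQ-16 and -0.45 under pioglitazone.

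The genes whose pattern was most like that of 4 filament genes were found by Pearson correlation over the 16 libraries on the median-ratio scale, among 10712 genes with a mean of at least 5 CPM. The filament genes described here were left out. So were genes without a symbol or with a provisional one, beginning with LOC, RGD, AABR or AC and a digit. The 16 points share the group differences and the library scaling, and the correlations are a description. Nearest to Des were Ccdc80, Hrct1 and Myom2 (r of 0.97, 0.96 and 0.96), and within groups their r was 0.89, 0.85 and 0.93. Myom2, a sarcomere gene, ran from 0.791 to 15.9 CPM in control and from 94.4 to 175 CPM in PAN. It ran from 15.7 to 146 CPM under pioglitazone and from 17.9 to 152 CPM under GQ-16, so that, unlike Des, it overlapped the PAN rats in both. Ccdc80, which encodes a secreted matrix protein, ran from 87.8 to 273 CPM in control, 613 to 928 in PAN, 378 to 702 under pioglitazone and 304 to 541 under GQ-16. Nearest to Vim were Actn4, Cdr2l and Itga3 (r of 0.98 each), of which Actn4 (alpha-actinin-4) and Itga3 (integrin alpha 3) are abundant in podocytes. Nearest to Krt8 were Smtnl2, Spint1 and Plau (r of 0.96, 0.96 and 0.94), none of them called in PAN. Nearest to Lmna were Cd151, Mafk and Lrrfip1 (r of 0.94, 0.93 and 0.92), whose r within groups was lower, at 0.77, 0.86 and 0.73. Among the filament genes themselves, Des correlated with Vim and with Nes at an r of 0.87 each, Vim with Nes at 0.93, and Nes with Synm at -0.64.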

How the data were processed

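Poly(A) RNA of glomeruli from 16 rats was read as 1 table. Per the submitters' processing notes, HISAT2, Subread, featureCounts, limma and the build Rnor_6.0 were used, with versions and settings not given in the sources used here. The authors deposited log2 CPM values for 13222 genes. They follow the form (reads + 0.5) over the library total, and undoing it gave whole reads (within 0.05) for 100% of values.

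CPM was recovered as 2 to the power of the deposited log2 value. limma 3.58.1 (R 4.3.3, variance trend) was fitted on log2(CPM + 1) to all 13222 genes, with 4 group means over 16 libraries and Benjamini-Hochberg adjustment. The design had allowed for raw counts, which the table does not hold. Fold changes are on that scale and understate changes of low genes. The script was tested on simulated data. Intervals are 95%. The labels do not name the animal behind a library, so p-values measure only the spread between these samples, taken as separate rats. CPM is not scaled for gene length, so levels are compared between rats and not between genes.

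The genes, lists and tests were chosen with earlier results of these data known. All 7 genes found are named. From each list of partners the 3 largest called rises and falls are named, and Nefm, Nefh, Hspb1, Bag3, Plec and Dsp were added after their values were seen. The 3 most like genes are given for Des, Vim, Krt8 and Lmna. Of 12 planned ratio tests 9 were run, since those with Krt18 could not be.

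Alternatives were median-ratio scaling, a pseudocount of 0.1, a mean of at least 10 CPM, a fit to 2 groups, a covariate for sample names numbered 25 or higher, the median over a marker list and leaving out each rat. Chosen after seeing the data were leaving out control replicates 2 and 3, and the podocyte marker mean as a covariate.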

Additional observations from a re-analysis of the deposited data

Results flagged for a closer look

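In each of 40 groups of 4 rats the highest and the lowest rat were measured against the other 3, by the distance to the nearest of them as a share of the whole range (limit 0.829). In 4 groups the share reached the limit, where chance, at 1 in 20, would give about 2. Nes in PAN replicate 1 was 11.419 on the log2(CPM + 1) scale, or 2738 CPM, while the others lay between 10.97 and 11.047 (share 0.829). Krt7 in GQ-16 replicate 2 was 6.184, or 71.7 CPM, while the others lay between 6.76 and 6.842 (share 0.875). This rat also had the highest mitochondrial share of its group, 30.9%. The log2 ratio of Des to the podocyte markers in PAN replicate 3 was 1.067, below the others at 1.504 to 1.569 and still above every rat of the other groups. The log2 ratio of Des to the mesangial and smooth muscle markers in PAN replicate 4 was 2.857, above the others at 2.35 to 2.389. Leaving out PAN replicate 1 ended the call of Nes against control, as given above.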

How the results depend on the processing

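Among 42 values (7 genes in 6 comparisons), the 6 that were called had 0 changes of sign under any alternative. Of 273 values under alternatives that kept all rats or left out control replicates 2 and 3, 245 kept sign and side of the threshold, 13 lost the call, 3 gained it and 12 changed sign. Of 336 with 1 rat left out, 298 kept both, 15 lost the call, 7 gained it and 16 changed sign. The cause of these shifts was not tested.

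The 4 genes called in PAN against control became 1, Des, with the sample-name covariate and 1 without control replicates 2 and 3, and 2 to 4 with a rat left out. For pioglitazone against control the 2 became 1 with median-ratio scaling, the minimum of 10 CPM, the 2-group fit or the sample-name covariate, 0 without control replicates 2 and 3, and 0 to 4 with a rat left out. For GQ-16 the count was 1 against PAN with the podocyte covariate, and 0 to 4 against control with a rat left out. With the median over the mesangial markers the ratio differences of Des were 1.29, -0.61 and -0.20 (exact permutation p 0.0571, 0.3714 and 0.5143). With a rat left out, the difference for pioglitazone against the mean of the mesangial markers ran from -1.13 to -0.70, with an exact p of up to 0.0571 without any 1 PAN rat.

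Signs changed as follows. With median-ratio scaling Synm was -0.021 in PAN against control and 0.037 in pioglitazone against PAN, and Lmna was 0.0405 in GQ-16 against PAN. With the sample-name covariate Krt8 was 0.33 in PAN against control, Vim 0.031 and Lmna 0.0498 in pioglitazone against PAN, and Vim 0.21 and Lmna 0.053 in GQ-16 against PAN. With the podocyte covariate Vim was -0.016 and Lmna -0.061 in GQ-16 against pioglitazone, and Synm 0.0057 and Krt7 -0.11 in GQ-16 against control. With a rat left out, Krt8 ran from -0.32 to 0.022 in PAN against control, Krt7 from -0.11 to 0.22 and Synm from -0.19 to 0.034 in pioglitazone against PAN, and Vim from -0.46 to 0.13 and Lmna from -0.21 to 0.022 in GQ-16 against PAN. In GQ-16 against pioglitazone Vim ran from -0.12 to 0.47, Nes from -0.014 to 0.84 and Lmna from -0.12 to 0.11.

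Counts over all genes moved more. PAN against control called 2943 genes, 1141 with median-ratio scaling, 1580 in the 2-group fit, 393 with the sample-name covariate, 829 with the podocyte covariate, 127 without control replicates 2 and 3, and 838 to 4964 with a rat left out. Pioglitazone against control called 659, with 378 under median-ratio scaling, 393 at a minimum of 10 CPM, 412 with the podocyte covariate, 1 without control replicates 2 and 3, and 48 to 1660 with a rat left out. GQ-16 against control called 20, with 98 under median-ratio scaling, 33 with the sample-name covariate, 0 without control replicates 2 and 3, and 0 to 1572 with a rat left out. GQ-16 against PAN called 2, with 51 under the podocyte covariate, 1 at a minimum of 10 CPM, 0 with median-ratio scaling, the 2-group fit or the sample-name covariate, and 0 to 9 with a rat left out. The planned Krt18 to Krt8 ratio was not run. With 4 rats a group no exact test can go below 0.0286. No paired analysis was possible because the labels give no number or animal shared between groups.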
